A study of Homo sapiens with 4 samples.

Results

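Chromosome 19 carries more genes for Krüppel-type zinc finger proteins than any other human chromosome, and the set described here is the protein-coding genes on that chromosome whose symbol is ZNF followed by a number. The GENCODE 44 annotation of GRCh38 holds 249 such genes among 20046 protein-coding genes, 134 on the plus strand and 115 on the minus strand. They include 3 read-through models, and none of these was given a poly(A) site. By the rule used, a site in the 3′ UTR of both such a model and another protein-coding gene went to the other gene. The genes were chosen by name and position and not by any measured value.

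PAS-seq reads the ends of poly(A) RNA and so places each cleavage site on the genome, and it was done on the esophageal squamous cell carcinoma lines KYSE30 and TE-1. There were 4 libraries, 1 of each line given 20 mM l-lactate for 24 h and 1 of each line given PBS as control, with no genetic change named in the labels. The cell line labels of the control samples read KYSE32 and TE-3, but their titles and the study's methods name KYSE30 and TE-1, and the titles were followed. Each line had 1 library per treatment, so there is no replicate within a line, and a line difference cannot be told apart from a difference between the cultures used.

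The libraries held 7174991 to 10393799 tags. The measured feature is the poly(A) site cluster (PAC), a run of neighbouring cleavage sites, and its level is given as TPM, its tags scaled to the mapped tags of the library, which carry no correction for length because each transcript gives 1 tag at its end. Of 10 squamous and other epithelial markers, KRT8, KRT18 and EPCAM were listed in all 4 libraries, SOX2 and KRT6A in KYSE30 alone and KRT17 in TE-1 alone, CDH1 in all but the TE-1 control, and KRT5, KRT14 and TP63 were at 0 in all 4. They summed to 3403 and 3622 TPM in KYSE30 and 1454 and 1359 TPM in TE-1 (control and l-lactate). Of 6 fibroblast markers, 3 were listed in TE-1 (sums of 16.6 and 15.4 TPM) and none in KYSE30. Of 3 endothelial markers, CDH5 was listed in KYSE30 (16.2 and 11.2 TPM) and none in TE-1, and of 6 leukocyte markers CD68 was listed, at 3.48 to 15.2 TPM. The part of these marker differences in the line differences below was not tested.

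Most proteins of this family join an array of C2H2 zinc fingers, which reads DNA sequence, to a KRAB domain. The KRAB domain binds TRIM28, which brings the histone methyltransferase SETDB1, heterochromatin protein 1 and histone deacetylases to the bound site, and many members silence retroelements in this way. The genes arose by repeated local duplication and lie in clusters along chromosome 19, where neighbours share much of their sequence. Alternative polyadenylation selects among poly(A) signals (AAUAAA or a variant such as AUUAAA) and so sets the length of the 3′ UTR.

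The sites on which the results on 3′ UTR usage turn are shown first. These are the 5 genes in which, with a minimum of 5 TPM per PAC, usage of the most distal 3′ UTR PAC met the rule for a change with l-lactate in a line or for a difference between the lines. Each line gives the last 30 bases of the DNA strand matching the transcript, ending at the dominant cleavage site, with the nearest poly(A) signal (AATAAA or ATTAAA) in capitals. Sequences are of GRCh38 (plus strand in every case).
ZNF576 proximal site, chr19:43599385-43599414: tcttAATAAAgaggacccagaagattctta
ZNF576 distal site, chr19:43599975-43600004: aacatccatATTAAAatgtctaaacaggga
ZNF226 proximal site, chr19:44175220-44175249: aaagacatggAATAAAaaatttagatagta
ZNF226 distal site, chr19:44177655-44177684: aaaaaaaatctataaaatgattctttgtga
ZNF134 proximal site, chr19:57621894-57621923: gtgatAATAAAggctttacagtttaagcca
ZNF134 middle site, chr19:57623325-57623354: cccatttttaaatATTAAAaagctgctgca
ZNF134 distal site, chr19:57624695-57624724: tcacAATAAAagctgcttgcctttgcttca
ZNF556 proximal site, chr19:2880246-2880275: tattATTAAAacaaaagtttctgtttctga
ZNF556 distal site, chr19:2883416-2883445: ttgtgtttaATTAAAggcaaatgaaatcca
ZNF264 proximal site, chr19:57194916-57194945: tgatccagaAATAAAggctcagagaaatga
ZNF264 middle site, chr19:57216738-57216767: atttacATTAAAataattattgatatttta
ZNF264 distal site, chr19:57222816-57222845: taacttgtgATTAAAgagtatgttattgga

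The ZNF226 distal site had neither hexamer in these 30 bases, and the other sites had a signal ending 11 to 20 nt before the cleavage site. All of these sites lie in annotated 3′ UTRs. The proximal sites of ZNF226 and ZNF264 lie in the 3′ UTR of other coding transcript models than the canonical one, and the other sites lie in the canonical 3′ UTR.

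A PAC was listed for 116 of the 249 genes (46.6%), a share close to the 46.6% of 1227 other protein-coding genes of chromosome 19 and below the 68.8% of 266 ZNF-numbered genes on other chromosomes and the 51.4% of all protein-coding genes. The other 133 genes had no PAC in any library. The listing had a floor, since the authors removed single-site PACs under a TPM of 3, which is 21.5 to 31.2 tags at these depths, so a value of 0 means not listed. Between 95 and 105 of the genes were listed per library, and 83 were listed in all 4. This is 71.6% of the genes with a PAC, against 82.5% of all protein-coding genes with a PAC.

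The listed genes had low levels. The median of the mean TPM was 6.35 (quartiles 3.62 and 11.8), compared with 24.2 for all listed protein-coding genes, 24.3 for the other genes of chromosome 19 and 10.8 for ZNF-numbered genes elsewhere. A mean TPM of at least 20 was reached by 14 genes. Together the genes held 1138 TPM in the KYSE30 control, 1114 TPM in KYSE30 with l-lactate, 1015 TPM in the TE-1 control and 1101 TPM in TE-1 with l-lactate. These sums were 0.123%, 0.120%, 0.109% and 0.119% of the listed tags. The ratio of l-lactate to control was 0.979 in KYSE30 (95% counting interval 0.9496 to 1.01) and 1.084 in TE-1 (1.05 to 1.11), and these intervals cover counting error only.

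ZNF146, whose protein consists almost wholly of zinc fingers and lacks a KRAB domain, had the highest level. Its summed TPM was 53.3 and 57.0 in KYSE30 (control and l-lactate) and 61.8 and 80.3 in TE-1. ZNF580 followed with 58.6 and 50.6 TPM in KYSE30 and 39.4 and 33.2 TPM in TE-1, and ZNF428 with 49.0 and 40.3 TPM in KYSE30 and 17.8 and 13.9 TPM in TE-1. All 4 libraries put these genes above the median of the set, and for each of them the libraries of the 2 lines did not overlap. The next 9 genes (ZNF544, ZNF766, ZNF260, ZNF266, ZNF302, ZNF579, ZNF587B, ZNF480 and ZNF83) lay between 15.4 and 35.0 TPM, and their ranges over the libraries overlapped those of their neighbours in the order. ZNF224, a KRAB protein known as a repressor that binds TRIM28, had 20.9 and 22.7 TPM in KYSE30 and 18.7 and 18.4 TPM in TE-1.

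**Figure D1:**
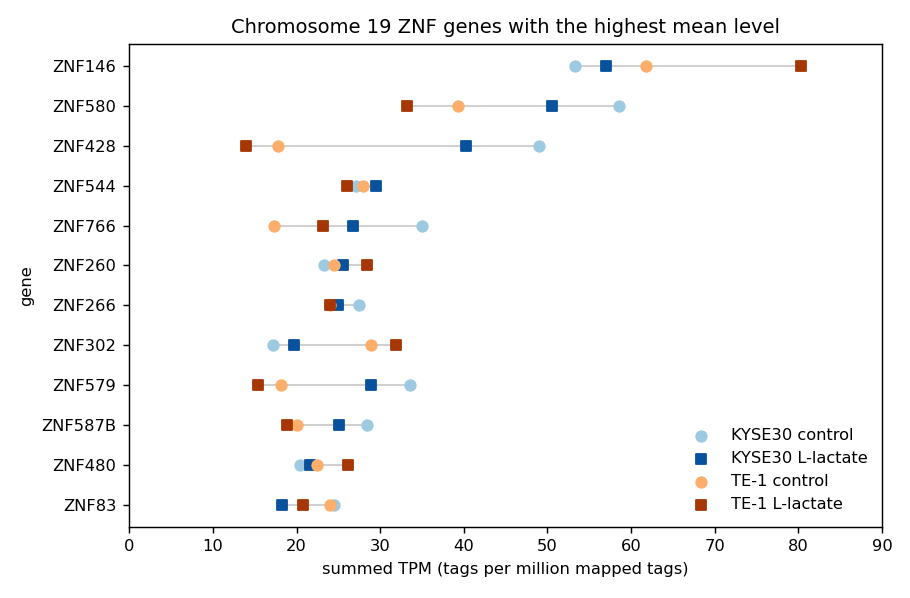
Summed TPM (tags scaled to the mapped tags of the library) of the 12 genes with the highest mean, 1 point per library (circles control, squares l-lactate) and a grey line from the lowest to the highest library. ZNF146 reached 80.3 TPM in TE-1 with l-lactate, and ZNF428 was higher in both KYSE30 libraries (40.3 and 49.0 TPM) than in both TE-1 libraries (13.9 and 17.8 TPM).

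The 116 genes held 145 of the 17627 PACs, of which 131 lay in a 3′ UTR, 10 in an intron and 4 in another exon. They had 1.25 PACs per gene, against 1.46 over all protein-coding genes with a PAC and 1.203 over the other genes of chromosome 19. At least 2 PACs were listed for 25 genes (21.6%), against 33.1% of all genes, 16.1% of other chromosome 19 genes and 29.5% of other ZNF-numbered genes. The median annotated 3′ UTR was 1826 nt, against 1371 nt over all genes and 605 nt over the other genes of chromosome 19. AATAAA stood in the 50 nt before 99 of the 145 dominant sites (68.3%, Wilson 95% interval 60.3% to 75.3%), and before 66.6% of the sites of all protein-coding genes. AATAAA or ATTAAA stood before 88.3% (82.0% to 92.5%), against 83.4% of all sites and 80.8% of other chromosome 19 sites. TGTA (UGUA in RNA), the core of the motif that the cleavage factor NUDT21 binds, was found within 100 nt upstream of 58.6% of sites, against 57.8% of all sites and 41.4% of other chromosome 19 sites. Only the strand matching the transcript was searched, and a match is a description of sequence. Near-identical copies of the 3′ end elsewhere on chromosome 19 were found for 9 PACs, in ZNF714, ZNF431, ZNF302, ZNF181, ZNF765, ZNF761, ZNF799, ZNF443 and ZNF320, and the split of tags between such copies is uncertain.

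The lines were compared with limma on log2(TPM + 1) over all 4 libraries with treatment as a further term. Of the 116 listed genes, 106 passed the filter of a mean of 2 TPM. Among them 28 were higher and 33 lower in TE-1 at an adjusted p of 0.05, and 45 were not called. This is 57.5% of the genes fitted, where 72.7% of all 9775 genes were called (35.9% higher and 36.8% lower). The median log2 difference was -0.07, compared with -0.01 over all genes. Of 545 other protein-coding genes of chromosome 19 fitted, 116 were higher and 262 lower, with a median of -0.28. Of 166 ZNF-numbered genes fitted on other chromosomes, 53 were higher and 50 lower. In bulk RNA, fewer cells of a kind and less RNA per cell cannot be told apart. Of the 28 higher genes 17 were listed at 0 in at least 1 library, as were 4 of the 33 lower genes, and a gene that passed the filter only through 1 line had to differ. In a fit of genes listed in all 4 libraries, added after the data were seen, 12 of 83 were higher (14.5%) and 31 lower (37.3%), where 36.2% and 36% of 8478 genes were.

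Of the genes lower in TE-1, ZNF428 fell by 1.44 on the log2 scale (SE 0.12, adjusted p = 3.38e-05) and ZNF264 by 1.48 (SE 0.20, adjusted p = 0.000347). ZNF264 had 17.2 and 18.3 TPM in KYSE30 (control and l-lactate) and 6.74 and 4.84 TPM in TE-1. In both genes the libraries of the lines did not overlap. ZNF264 had a PAC at 0 in both TE-1 libraries (7.41 and 8.36 TPM in KYSE30) and another at 0 in both KYSE30 libraries (5.10 and 3.66 TPM in TE-1). The size of its difference therefore rests in part on the listing. ZNF274, which brings SETDB1 to the 3′ ends of other zinc finger genes, had 22.1 and 24.5 TPM in KYSE30 and 9.04 and 12.2 TPM in TE-1, a log2 difference of -1.08 (SE 0.16, adjusted p = 0.00057). The 29 lower genes listed in every library had log2 differences from -1.48 to -0.43.

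The other 4 of the 6 lowest genes were listed in KYSE30 alone. ZNF329 had 11.3 and 11.6 TPM (control and l-lactate) and ZNF256 had 5.93 and 9.76 TPM. ZNF850 had 6.60 and 5.85 TPM and ZNF772 had 5.25 and 5.02 TPM. All 4 were at 0 in both TE-1 libraries and passed the filter through KYSE30 alone, which fixed their calls, so no fold is given. In all, 7 genes were listed in both KYSE30 libraries and neither TE-1 library.

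The reverse pattern, listed in both TE-1 libraries and neither KYSE30 library, was seen for 11 genes. The share of all genes listed in 1 line alone was not counted, so the counts of 7 and 11 are given as a description. ZNF556 had 13.3 and 12.04 TPM in TE-1 (control and l-lactate) and ZNF585B had 10.2 and 13.0 TPM. ZNF155 had 9.24 and 10.5 TPM, ZNF429 had 6.25 and 6.97 TPM and ZNF100 had 5.77 and 6.97 TPM. These 5 genes passed the filter through TE-1 alone, so that their calls were fixed by it, and the size of their fitted rise depends on the pseudocount. ZNF320, also named by the rule on fitted rises, had 1.077 TPM in the KYSE30 control, was listed at 0 in KYSE30 with l-lactate, and had 13.9 and 16.9 TPM in TE-1. ZNF675, whose product binds TRAF6 and restrains signalling through it, had 3.66 and 5.195 TPM in TE-1. The 11 higher genes listed in every library had log2 differences from 0.35 (ZNF146) to 1.98.

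Along the chromosome the genes fell into 20 blocks, counting neighbours under 500 kb apart as 1 block, and 10 blocks had at least 3 fitted genes. In the block from 19.7 to 24.1 Mb, which holds 37 genes, 10 genes had a PAC and 8 were fitted. Of these 7 were called higher in TE-1 and 0 lower by limma (all genes 35.9% and 36.8%), but 4 of the 7 were at 0 in both KYSE30 libraries and passed the filter through TE-1 alone. Among genes listed in all 4 libraries 3 were called higher. Of these, ZNF254 and ZNF714 each had a PAC at 0 in both KYSE30 libraries. The summed TPM of the block was 24.6 and 29.3 in KYSE30 (control and l-lactate) and 70.7 and 77.1 in TE-1. Both TE-1 libraries lay above both KYSE30 libraries, but the TE-1 sums include genes and PACs at 0 in both KYSE30 libraries. The order of the sums therefore rests in part on the listing. Only ZNF431, with 7.14 and 11.6 TPM in KYSE30 and 6.93 and 10.2 TPM in TE-1, was not called. ZNF101 had 12.3 and 11.6 TPM in KYSE30 and 18.4 and 19.1 TPM in TE-1, and ZNF254 had 2.83 and 4.46 TPM in KYSE30 and 7.99 and 9.21 TPM in TE-1. The ZNF254 PAC listed in every library had 2.83 and 4.46 TPM in KYSE30 and 4.04 and 4.25 TPM in TE-1. ZNF714, which has a near-identical copy, had 2.42 and 1.67 TPM in KYSE30 and 10.4 and 11.5 TPM in TE-1. Of its TE-1 values, 7.02 and 8.50 TPM lay in the PAC with the copy, at 0 in KYSE30. Its other PAC had 3.37 and 2.95 TPM in TE-1. The 4 called genes at 0 in KYSE30 were ZNF738, ZNF429, ZNF100 and ZNF675. ZNF91, known for silencing SVA elements, lies in this block and was listed at 3.31 TPM in TE-1 with l-lactate and at 0 in the other libraries. The 3 other protein-coding genes of the block were not fitted.

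The block from 55.5 to 56.7 Mb had 7 fitted genes, of which 6 were lower in TE-1 and 0 higher by limma, where 36.8% of all genes were lower and 35.9% higher. Of the 545 other genes of chromosome 19 fitted, 262 were lower and 116 higher. The median log2 difference of the block was -0.86. Its summed TPM was 137 and 124 in KYSE30 (control and l-lactate) and 79.5 and 75.3 in TE-1. ZNF580 fell by 0.58 on the log2 scale (SE 0.10, adjusted p = 0.00131) and ZNF579 by 0.86 (SE 0.13, adjusted p = 0.000668). ZNF581, which overlaps ZNF580 on the same strand, had 18.99 and 18.3 TPM in KYSE30 and 10.01 and 9.45 TPM in TE-1. ZNF71 was not called, with 3.64 and 3.76 TPM in KYSE30, 0 in the TE-1 control and 4.25 TPM in TE-1 with l-lactate. All 6 called genes were listed in all 4 libraries. Among 4 other protein-coding genes fitted in the same block, 2 were lower and 0 higher. These 2 blocks were picked after their counts were seen. Blocks with both directions included the one from 57.2 to 58.5 Mb, with 5 higher and 10 lower of 24 fitted, and the one from 51.6 to 53.6 Mb, with 6 higher and 4 lower of 18, to be read against the same shares of all genes.

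**Figure D2:**
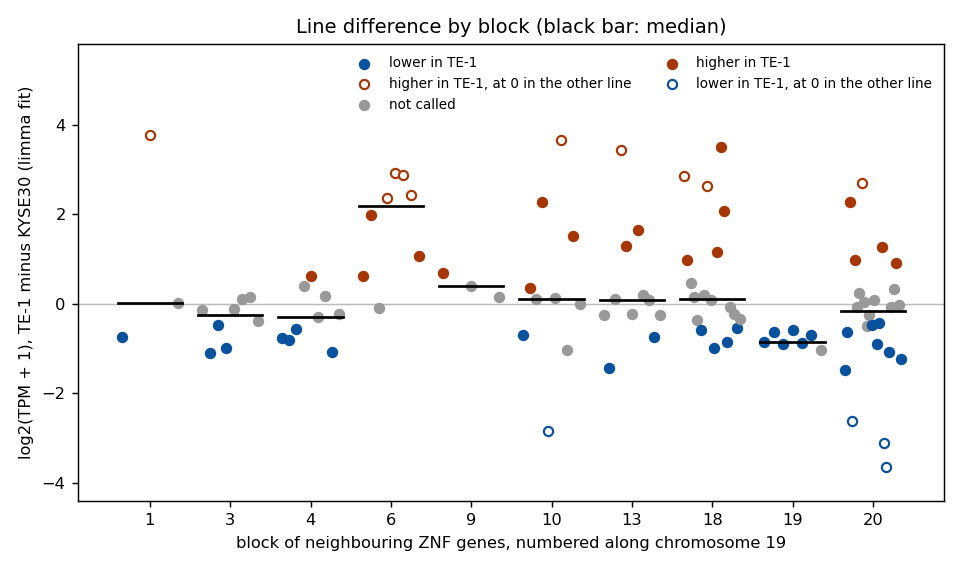
Difference in log2(TPM + 1), TE-1 minus KYSE30, of each fitted gene in the 10 blocks with at least 3 fitted genes, in chromosome order within a block (colours give the limma call, open circles are genes listed at 0 in both libraries of the other line, black bars are medians). In block 6 (19.7 to 24.1 Mb) 7 of 8 genes were called higher, of which 4 were at 0 in KYSE30, and in block 19 (55.5 to 56.7 Mb) 6 of 7 were called lower.

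No gene of the set passed the test for a change with l-lactate shared by the lines. In limma, 0 of 106 were called and the lowest adjusted p was 0.55, where 0% of all 9775 genes were called. At an unadjusted p under 0.05 there were 9 genes (8.49%), 6 of them higher with l-lactate, against 8.62% of all genes. The change was upward in both lines in 31 genes, downward in both in 17, and unlike or 0 in 58. Over all 9775 genes it was upward in 2849, downward in 2007 and unlike or 0 in 4919. The median log2 change was 0 in KYSE30 and 0.12 in TE-1, against 0 and 0.03 over all genes.

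Among genes with a mean of at least 5 TPM that moved the same way in both lines, the 4 with the largest rises were ZNF431, ZNF134, ZNF780A and ZNF473, and those of ZNF431 and ZNF780A in KYSE30 rest in part on single listings. ZNF431 had 7.14 TPM in the KYSE30 control and 11.6 TPM with l-lactate (ratio 1.62, 95% counting interval 1.13 to 2.33), and 6.93 and 10.2 TPM in TE-1 (1.47, 1.06 to 2.03). In KYSE30 3.07 TPM of the l-lactate value (22 tags) came from a PAC at 0 in the control, and the PACs listed in both libraries gave 7.14 and 8.50 TPM (ratio 1.19, 0.811 to 1.75). Another of its 3 PACs, in an intron, has a near-identical copy, so the split of its tags is uncertain. That PAC had 5.66 and 7.11 TPM in KYSE30 (control and l-lactate) and 3.56 and 6.02 TPM in TE-1. The 3′ UTR PAC of ZNF431 listed in every library had 1.48 and 1.39 TPM in KYSE30 and 3.37 and 4.13 TPM in TE-1. ZNF134 had 13.7 and 17.4 TPM in KYSE30 and 13.95 and 18.2 TPM in TE-1, with ratios of 1.27 (0.969 to 1.66) and 1.30 (1.03 to 1.65). ZNF780A had 14.4 and 19.1 TPM in KYSE30 and 13.2 and 15.5 TPM in TE-1, and its PACs listed in both KYSE30 libraries gave 14.4 and 15.5 TPM (ratio 1.07, 0.816 to 1.41). ZNF473, a component of the machinery that forms the 3′ ends of histone mRNAs, had 7.41 and 8.64 TPM in KYSE30 and 9.14 and 11.7 TPM in TE-1. The l-lactate library was the higher in both lines for these 4 genes, and none passed the adjusted test (adjusted p of 0.55 to 0.72).

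On the other side ZNF428 had 49.0 TPM in the KYSE30 control and 40.3 TPM with l-lactate, and 17.8 and 13.9 TPM in TE-1, a shared log2 change of -0.30 (SE 0.12, unadjusted p = 0.0406, adjusted p = 0.57). ZNF160 had 13.3 and 10.9 TPM in KYSE30 and 6.83 and 5.55 TPM in TE-1. ZNF579 had 33.5 and 28.9 TPM in KYSE30 and 18.1 and 15.4 TPM in TE-1. For ZNF428, ZNF160, ZNF579 and ZNF580 the l-lactate library was the lower in both lines, and none passed the adjusted test.

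Within a line, where no test can be made, 4 genes rose past 1.5-fold on the log2(TPM + 1) scale and 6 fell past it in KYSE30 (2.59% and 2.7% of all genes), and 7 rose and 3 fell in TE-1 (3.17% and 1.98%). In KYSE30, 2 of the 4 rises and 5 of the 6 falls had 1 library at 0, as did 2 of the 7 rises in TE-1. ZNF586 had 8.37 TPM in the TE-1 control and 3.31 TPM with l-lactate, and 5.25 and 4.74 TPM in KYSE30.

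The ratio of summed tags differed between lines in the block from 51.6 to 53.6 Mb. In KYSE30 the block held 218 TPM in the control and 179 TPM with l-lactate (tag ratio 0.821, 95% counting interval 0.763 to 0.884), and 15 of 18 fitted genes were lower with l-lactate. In TE-1 it held 197 TPM in the control and 230 TPM with l-lactate (1.16, 1.09 to 1.24), and 14 of 18 were higher. The median log2 change of its fitted genes was -0.25 in KYSE30 and 0.22 in TE-1, against 0 and 0.03 over all genes. The genes were read from the same libraries and so are not repeats of the treatment. Of the control level in KYSE30, 14.7 TPM lay in PACs at 0 with l-lactate, which the counting intervals take as true zeros. From PACs listed in both libraries of a line, a setting added after the data were seen, the ratio was 0.881 in KYSE30 (0.817 to 0.949, lower in 12 of 14 genes) and 1.14 in TE-1 (1.07 to 1.21). ZNF766, the largest contributor, had 35.0 and 26.8 TPM in KYSE30, of which 4.98 TPM in the control was in a PAC at 0 with l-lactate, and 17.3 and 23.1 TPM in TE-1. ZNF331, an imprinted gene, had 13.2 and 10.7 TPM in KYSE30 and 7.22 and 11.5 TPM in TE-1, whereas ZNF83 was lower with l-lactate in both lines (24.5 and 18.3 TPM, and 23.96 and 20.8 TPM). In the block from 36.2 to 37.8 Mb the ratio was 1.06 in KYSE30 (0.960 to 1.17) and 1.31 in TE-1 (1.21 to 1.41). These blocks were picked after their values were seen, and the difference between the lines was not tested.

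Distal 3′ UTR usage, the share of a gene's 3′ UTR tags in its most distal PAC, could be measured for 6 genes in each line, 8 genes in all, when each PAC had to reach 5 TPM in at least 1 library of the line. A change of 10 percentage points was counted, with no test, since each condition had 1 library. In KYSE30, 1 gene lengthened and 1 shortened (3.25% and 5.82% of 1632 genes measured), and in TE-1, 1 lengthened and 2 shortened (6.17% and 5.2% of 1636).

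ZNF576 lengthened in both lines. Its distal usage was 46.2% in the KYSE30 control and 58.6% with l-lactate, a change of 12.3 points (Newcombe 95% interval -1.39 to 25.4), and 53.2% and 67.4% in TE-1, a change of 14.2 points (1.02 to 26.5). The l-lactate library was the higher in each line. The proximal PAC (after an AATAAA) and the distal PAC (after an ATTAAA) lie 590 nt apart. In KYSE30 the distal PAC went from 5.79 to 9.06 TPM while the proximal PAC had 6.73 and 6.41 TPM. In TE-1 the proximal PAC had 5.68 and 3.54 TPM while the distal PAC had 6.45 and 7.32 TPM.

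ZNF134 has 3 PACs in its 3′ UTR, of which the proximal one (4.04 to 4.72 TPM) fell under the 5 TPM minimum. From the middle and distal PACs it had a distal usage of 56.9% in the KYSE30 control and 43.2% with l-lactate (change -13.8 points, -28.2 to 1.48), and of 54.4% and 47.4% in TE-1 (-7.00 points, -19.9 to 6.23). With all 3 PACs the changes were -7.40 points in KYSE30 (40.2% and 32.8%, -19.7 to 5.07) and -3.56 points in TE-1 (-14.3 to 7.30), and neither was counted. The middle PAC, 1370 nt before the distal one, had 4.18 and 7.53 TPM in KYSE30 and 4.52 and 7.09 TPM in TE-1. The distal PAC had 5.52 and 5.71 TPM in KYSE30 and 5.39 and 6.38 TPM in TE-1. The middle PAC was thus the one that differed most between the libraries of each line.

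ZNF226 had a distal usage of 69.0% and 61.6% in KYSE30 (control and l-lactate; change -7.45 points, -18.6 to 4.04) and of 54.8% and 44.8% in TE-1 (-10.1 points, -19.7 to -0.103). Its sites lie 2435 nt apart. ZNF556, listed in TE-1 alone, had 64.5% in the control and 52.9% with l-lactate (-11.6 points, -23.7 to 0.976). In both genes the l-lactate library had the lower share. Except for ZNF576 and ZNF226 in TE-1, the intervals of these changes include 0, and the tags behind each share numbered 72 to 208.

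The other genes measured did not reach 10 points. ZNF480 had 40.8% and 39.4% in KYSE30 and 36.5% and 37.1% in TE-1, and ZNF561 had 69.2% and 68.4% in KYSE30. ZNF320 had 56.3% and 63.6% in TE-1, and ZNF264 had 43.0% and 45.8% in KYSE30. The intervals of these 5 changes all include 0. With every listed PAC kept, whatever its level, 2 genes lengthened and 3 shortened in KYSE30 (6.21% and 9.6% of 2449 genes measured) and 2 lengthened and 2 shortened in TE-1 (8.13% and 8.08%). ZNF134 was then no longer counted as shortened in KYSE30. The genes added (lengthened: ZNF616 in KYSE30 and ZNF550 in TE-1; shortened in KYSE30: ZNF431, ZNF780A and ZNF766) each had a PAC listed in 1 library of the line and at 0 in the other. In ZNF766 the distal PAC held 37 of 260 tags in the KYSE30 control and 0 of 192 with l-lactate, where the floor of 3 TPM is 21.5 tags.

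Between the lines, distal usage was tested with limma on the log2 odds in 6 genes. It was lower in TE-1 in 1 gene and higher in 0, where 13% of 1925 genes measured were lower, 5.92% higher and 18.9% either. At an unadjusted p under 0.05 there were 2 genes. The gene called was ZNF264 (adjusted p = 0.0113). It is given as a description, since its distal PAC reached 5 TPM through KYSE30 alone, which fixed the direction, and its fitted odds rest on the added 0.5 tags. The distal PAC had 7.41 and 8.36 TPM in KYSE30 (control and l-lactate) and was listed at 0 in both TE-1 libraries. The middle PAC, 6078 nt before it, was listed at 0 in both KYSE30 libraries and had 5.10 and 3.66 TPM in TE-1. The proximal PAC, 21822 nt before the middle one, was listed in every library, with 9.83 and 9.90 TPM in KYSE30 and 1.64 and 1.18 TPM in TE-1. The lines thus listed different ends of the canonical 3′ UTR, each after an ATTAAA, and both libraries of a line listed the same PACs. ZNF226 had the next smallest value, with a log2 odds difference of -0.92 (SE 0.15, adjusted p = 0.0548), while ZNF576, ZNF561, ZNF480 and ZNF134 were not called.

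**Figure D3:**
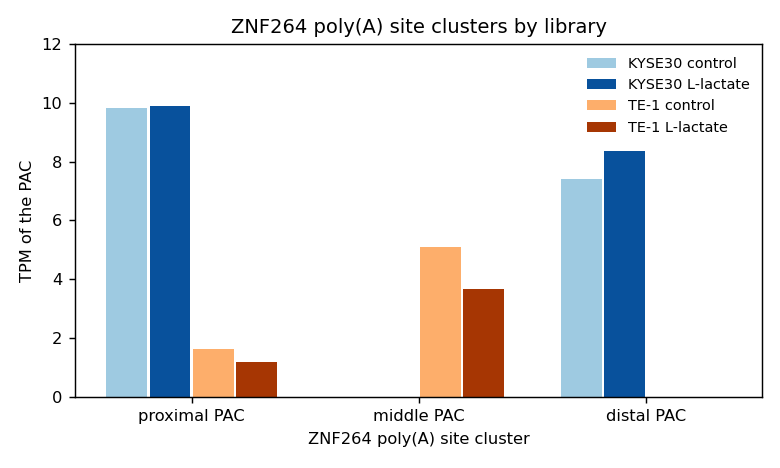
TPM of the 3 PACs of ZNF264 in each library, 1 bar per library. The distal PAC was listed only in KYSE30 (7.41 and 8.36 TPM), the middle PAC only in TE-1 (5.10 and 3.66 TPM), and the proximal PAC in all 4 libraries.

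Within a PAC the dominant cleavage site rarely moved. With at least 5 TPM in both libraries, it was at the same base in 67 of 71 PACs in KYSE30 and 71 of 74 in TE-1, and it moved by more than 24 nt in 0 of either. Between the control libraries of the lines it was at the same base in 53 of 56 PACs and moved by more than 24 nt in 1, in ZNF586.

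Of 30 genes for partners of KRAB zinc finger proteins and the heterochromatin they form, 28 had a PAC and were fitted. They were 7 higher and 12 lower in TE-1 by limma (all genes 35.9% and 36.8%), and 0 were called with l-lactate. TRIM28, the corepressor bound by KRAB domains, had 187 and 173 TPM in KYSE30 (control and l-lactate) and 166 and 150 TPM in TE-1, a log2 difference of -0.19 (SE 0.07, adjusted p = 0.0396). SETDB1 had 49.3 and 40.8 TPM in KYSE30 and 31.3 and 27.3 TPM in TE-1. The libraries of the lines did not overlap for either gene. ATF7IP, which stabilises SETDB1, had 32.1 and 40.4 TPM in KYSE30 and 15.5 and 15.8 TPM in TE-1. The heterochromatin protein gene CBX3 was higher in TE-1, with 534 and 560 TPM in KYSE30 and 727 and 762 TPM in TE-1. The largest log2 differences on the list were also upward in TE-1, 2.47 for EHMT2 and 2.34 for DAXX. EHMT2 was listed at 0 in both KYSE30 libraries, so the size of its difference depends on the pseudocount. UHRF1 (0.73) and PPHLN1 (0.71) were higher too, against the 12 genes called lower. This list includes ZNF274, which is also one of the 249 genes.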

How the data were processed

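The genes and gene lists were chosen with earlier results of these data known. According to the study's methods, the authors aligned trimmed reads with HISAT2 (genome GRCh38.p14 in the submitters' processing notes) and called poly(A) sites with CAGEr. They dropped sites under a TPM of 1, joined sites within 24 nt and removed single-site PACs under a TPM of 3. They further joined PACs over a TPM of 5 that lay up to 500 nt apart. Where sites were joined in this way they count here as 1 PAC, and usage between them could not be measured. The deposited TPM are RPM values, the tags of a PAC scaled to the mapped tags of its library, on a linear scale. Whole tags were worked out from their steps.

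Here each PAC was given to 1 gene of GENCODE 44 by its dominant site on the same strand (3′ UTR, then exon, then body), and TPM were summed per gene. Log2(TPM + 1) of genes with a mean of at least 2 TPM was fitted by limma 3.58.1 (R 4.3.3) on line and treatment, with trend and Benjamini-Hochberg adjustment over all 9775 genes. The fit has 1 residual degree of freedom per gene, which is how unlike the l-lactate change was in the 2 lines. Its p-values rest on this spread, moderated over all genes, which may be technical, and not on repeated cultures. In the fit of genes listed in all 4 libraries the variance was taken wholly from the trend over all genes. Distal usage used PACs of at least 5 TPM, with 0.5 tags added in the log2 odds. Near-identical 3′ ends were sought with BLAST 2.17.0 (150 nt, at least 95% identity over 140 nt). On simulated data for the line comparison (9775 genes), limma found 92 of 100 genes changed 2-fold and 100 of 100 changed 4-fold, with 5 of the unchanged genes called. The simulated data had a fixed spread between cultures, few changed genes and no listing floor, unlike the real data. Their counts therefore do not give the error rate of the line calls made here. Genes were named by fixed ranks: 12 highest levels, 6 largest called differences each way between lines, 4 largest shared l-lactate changes each way, those in 1 line alone, called distal usage and most PACs. Others were named after their values were seen. Zinc fingers per protein were not analysed here. Tables and intervals were made with SciPy 1.17.1, pandas 2.3.3 and NumPy 2.4.6 under Python 3.11.15, and plots with matplotlib 3.10.9.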

Additional observations from a re-analysis of the deposited data

Results flagged for a closer look

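ZNF548 moved in opposite directions with l-lactate in the 2 lines, by -1.46 on the log2(TPM + 1) scale in KYSE30 and by 0.66 in TE-1. It had 1.75 TPM in the KYSE30 control, was listed at 0 in KYSE30 with l-lactate, and had 5.39 and 9.09 TPM in TE-1 (control and l-lactate). The difference between the lines was not tested, and the KYSE30 value rests on 13 tags in the control.

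The summed tags of the block from 51.6 to 53.6 Mb also moved apart, with a ratio of l-lactate to control of 0.821 in KYSE30 and 1.16 in TE-1. From PACs listed in both libraries of a line the ratios were 0.881 and 1.14. This difference was not tested either. Each condition was 1 library per line, so a difference between single cultures cannot be told apart from an effect of treatment.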

How the results depend on the processing

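Of 126 recomputed summary values, 84 were labelled as of the same size, which is a loose label. It covered a fall from 145 to 106 PACs and from 28 to 20 genes higher in TE-1, and l-lactate calls that were 0 throughout. All 232 recomputed values of named genes kept their direction and their side of the threshold. Genes at 0 in both libraries of a line, such as ZNF556 and ZNF329, had no value among genes listed in all 4 libraries. The filter fixed their calls, so their agreement between settings does not test them. With only PACs of at least 5 TPM, 9 genes had 2 or more PACs, and the share of listed tags was 0.112%, 0.114%, 0.110% and 0.101% (KYSE30 l-lactate, KYSE30 control, TE-1 l-lactate, TE-1 control). Counting every PAC in a span gave 0.123%, 0.127% and 0.111% for KYSE30 l-lactate, KYSE30 control and TE-1 control. Genes higher in TE-1 numbered 15 with a mean of at least 5 TPM (28 lower) and 12 among genes listed in all 4 libraries (31 lower), and the block from 19.7 Mb then had 3 in each case. Past 2-fold with no test, 18 were higher and 14 lower in the controls alone (17.1% and 20% of all genes), and 20 higher and 11 lower with l-lactate alone (17.3% and 18.5%).

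Genes higher with l-lactate in KYSE30 numbered 2 past 2-fold, 2 with a pseudocount of 2 and 1 with a mean of at least 5 TPM, and lower genes 3 with that mean. With only PACs listed in both libraries of the line, a setting added after the data were seen, they were 2 higher and 1 lower. In TE-1 the higher genes numbered 2, 4 and 1 under the same settings, and the lower genes 5 with no filter. With every listed PAC, 2 genes lengthened and 3 shortened in KYSE30 and 2 lengthened in TE-1. With a minimum of 10 TPM there were 0 and 0 in KYSE30 and 0 and 1 in TE-1, and past 20 points there were 0 in each. Past 5 points 2 shortened in KYSE30 and 2 lengthened in TE-1. Distal usage between lines gave 1 higher (ZNF331) and 2 lower genes (ZNF264 and ZNF765) with every listed PAC, where 10.6% of 2576 genes were called. Each of these genes had a PAC at 0 in both TE-1 libraries, which fixed the direction, and its fitted odds rest on the added 0.5 tags. With 2 tags added, 2 genes were lower. AATAAA or ATTAAA stood before 88.3% of sites.

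The planned count-based tests on recovered tags were not run, since the tables hold scaled values whose lowest is 8 to 11 tags. The l-lactate fit had line as a term and so compared treatments within lines, and the labels give no replicate numbers that could pair samples further. A PAC listed in 1 library and not in another decided several values, such as that of ZNF529 (3.50 and 0 TPM in KYSE30).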
